A study of Mus musculus with 108 samples.

Results

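Kv1 potassium channels were represented in these data by 9 of the 23337 genes counted. They are the 6 alpha subunit genes Kcna1, Kcna2, Kcna3, Kcna4, Kcna5 and Kcna6 and the 3 beta subunit genes Kcnab1, Kcnab2 and Kcnab3, which were chosen by symbol and not by value. RNA was sequenced from mouse hippocampus, as 15 lysates of whole tissue and as 93 single neurons. The tissue was taken at postnatal days 0, 7, 14, 21 and 28 (P0 to P28), with 3 libraries per age labelled as independent replicates. Single neurons, from mice in postnatal weeks 3 to 4, fell into 5 labelled types. From CA1 came 14 fast-spiking parvalbumin (PV) interneurons, 19 regular-spiking cholecystokinin (CCK) interneurons and 25 pyramidal neurons, and from the subiculum, the main output region of the hippocampus, 21 bursting and 14 regular-spiking pyramidal neurons. The labels name no treatment, allele or strain for any group. CA1 cells were prepared with version 3 of the cDNA kit, and subiculum cells and tissue with version 4, so region and kit version cannot be told apart.

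Kv1 channels are voltage-gated potassium channels that open at small depolarisations, delay the next spike and limit transmitter release. Alpha subunits form the pore as tetramers, alone or in mixtures, and cytoplasmic beta subunits, relatives of aldo-keto reductases, bind beneath them and change inactivation and trafficking. In the brain the channels are found on axons, in particular beside the nodes of myelinated fibres, and on nerve terminals, and loss of Kcna1 causes seizures in mice and episodic ataxia in people.

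The members lie on 5 chromosomes of the GRCm38 (mm10) build, and 2 groups of alpha genes are neighbours. Kcna5 (chromosome 6, 126532551 to 126535412), Kcna1 (chromosome 6, 126640397 to 126646384) and Kcna6 (chromosome 6, 126708329 to 126740674) follow each other on the minus strand with gaps of 104.98 and 61.9 kb. Kcna3 (chromosome 3, 107036169 to 107038070) and Kcna2 (chromosome 3, 107101146 to 107115005) stand 63.1 kb apart on the plus strand. Kcna4 lies on chromosome 2 (107290639 to 107298502), Kcnab1 on chromosome 3 (65109384 to 65378223), Kcnab2 on chromosome 4 (152390742 to 152477871) and Kcnab3 on chromosome 11 (69326258 to 69333042).

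Counts of close relatives can be split wrongly where their sequences are identical, so the longest coding transcripts of the members were compared. Of the 36 pairs, 1 shared an identical window of 50 bases. In Kcna5 and Kcna6 an identical run of 91 bases lies inside the coding sequence of both genes, in the part that encodes the voltage sensor. It is shown in capitals with 20 bases on each side, from GENCODE M21 on the minus strand at chr6:126533930-126534060 for Kcna5 and chr6:126738832-126738962 for Kcna6.
Kcna5: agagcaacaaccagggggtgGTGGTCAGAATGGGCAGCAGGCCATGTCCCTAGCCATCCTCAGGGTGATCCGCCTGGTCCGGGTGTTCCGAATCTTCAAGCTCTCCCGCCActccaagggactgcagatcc
Kcna6: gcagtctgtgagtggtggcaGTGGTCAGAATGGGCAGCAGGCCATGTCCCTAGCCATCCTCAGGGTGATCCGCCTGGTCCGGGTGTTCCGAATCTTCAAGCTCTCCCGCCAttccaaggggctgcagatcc
A read that falls within the capitals cannot be assigned to either gene by its sequence. The PV cells held 7223 reads of Kcna6 and 0 of Kcna5, and the CCK cells 6879 and 0. Low Kcna5 counts are still reported as uncertain, because how the authors treated reads with several matches is not given in the sources used here. Whether libraries kept the strand is not given either, so Kcnab1 and Kcnab2, which overlap A730090N16Rik and Nphp4 in the table, may hold or lose reads of these genes.

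Kcna2 and Kcna3 are shown together because they are neighbours whose transcripts changed in opposite directions in tissue. RefSeq promoters (GRCm38.p6, 250 bases before to 50 after the start) were listed for 7 of the 9 members; Kcna1 and Kcnab3 were not among them. Capitals mark GGGCGG on either strand, which is written CCGCCC when it lies on the other strand. The Kcna2 window is chr3:107101317-107101616 and the Kcna3 window chr3:107035912-107036211, both on the plus strand.
Kcna2: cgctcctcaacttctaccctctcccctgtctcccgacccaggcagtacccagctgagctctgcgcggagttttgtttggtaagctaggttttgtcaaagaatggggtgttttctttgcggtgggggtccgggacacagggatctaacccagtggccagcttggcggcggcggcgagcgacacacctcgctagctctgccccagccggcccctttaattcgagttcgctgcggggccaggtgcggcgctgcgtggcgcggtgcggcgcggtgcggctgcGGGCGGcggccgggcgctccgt
Kcna3: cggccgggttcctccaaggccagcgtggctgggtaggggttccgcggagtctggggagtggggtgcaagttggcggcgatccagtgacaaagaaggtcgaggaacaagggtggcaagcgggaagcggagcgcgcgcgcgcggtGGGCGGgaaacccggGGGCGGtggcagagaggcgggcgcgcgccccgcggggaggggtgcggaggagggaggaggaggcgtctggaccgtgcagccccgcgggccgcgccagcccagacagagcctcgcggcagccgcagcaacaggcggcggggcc
The Kcna2 window holds 1 such motif and the Kcna3 window 2, and 35.7% of all 32851 promoter windows hold at least 1. They contain 31 CG dinucleotides in Kcna2 and 37 in Kcna3, against a median of 7 over all windows. TATAAA was found in neither window, on either strand, and in 13.6% of all windows. The neighbours are thus alike in these features, while their transcripts moved apart with age, as described next.

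Between P0 and P28 the hippocampus gained transcripts of 7 of the 9 Kv1 genes, lost those of Kcna3, and showed no called change of Kcna6. The largest increases were those of Kcnab2 and Kcna1, at 12.7-fold and 12.5-fold. The 3 libraries of an age are labelled as replicates without naming animals, so p-values measure only the spread between these libraries. Genes were tested with edgeR's quasi-likelihood test on counts of all 15 libraries, and a change was called where the p adjusted by Benjamini-Hochberg over the 14737 genes tested was under 0.05. All 9 members passed the filter on low counts. Of all genes tested, 32.9% rose and 31.3% fell between these ages. The median log2 fold change of the members was 2.37, and that of all tested genes 0.00. Tissue levels are given as counts per 1000000 gene reads after TMM scaling (CPM). In tissue, fewer cells of a type and less RNA per cell cannot be told apart. Summed CPM of 8 oligodendrocyte markers were 8853 to 11688 at P28 and 85.9 to 102.8 at P0, and those of 6 PV interneuron markers 829 to 931 at P28 and 379 to 414 at P0. The part of such shifts in the members' changes was not tested.

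Kcna1 encodes an axonal subunit that opens at low voltage. It had 269, 239.1 and 307 CPM in the 3 P28 libraries, against 21.8, 21.8 and 21.5 CPM in the P0 libraries. Every P28 library thus stood far above every P0 library. The log2 fold change was 3.64 (SE 0.13, adjusted p = 1.42e-14). The means were 21.7 CPM at P0, 57.0 at P7, 224.9 at P14, 300.4 at P21 and 272 at P28.

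Kcna2, the usual axonal partner of Kcna1, had 253.5, 248 and 295 CPM at P28, against 55.3, 43.3 and 49.4 CPM at P0. The ages did not overlap, and the log2 fold change was 2.46 (SE 0.13, adjusted p = 5.18e-12). At P0 Kcna2 was above Kcna1 in CPM, but its exons are longer. Per kb of exon the levels at P28 were 22.3 ± 2.2 CPM for Kcna2 and 56.8 ± 7.1 CPM for Kcna1 (SD, n = 3 each). At P0 they were 4.14 ± 0.50 CPM per kb for Kcna2 and 4.54 ± 0.04 CPM per kb for Kcna1, which lie within 1 SD of Kcna2. By the longest transcript they were 4.26 ± 0.52 for Kcna2 and 5.39 ± 0.04 CPM per kb for Kcna1, which lie further apart than that, so whether the pair differed at P0 depends on the length used.

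Kcna3, best known as the main Kv1 subunit of lymphocytes and microglia and also made by neurons, was the single member that fell. It had 12.2, 18.2 and 14.34 CPM at P28, against 27.4, 22.7 and 26.3 CPM at P0. The ages did not overlap, although the highest P28 library came within 5 CPM of the lowest P0 library. The log2 fold change was −0.75 (SE 0.16, adjusted p = 3.20e-04). The sum of 5 microglial markers was 247 to 267 CPM at P28 and 89.1 to 90.8 CPM at P0. The part of microglia in the change of Kcna3 was not tested.

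Kcna4, which encodes the alpha subunit that inactivates rapidly by itself, had 36.04, 31.6 and 34.5 CPM at P28, against 17.8, 21.29 and 16.7 CPM at P0 (log2 fold change 0.86, SE 0.19, adjusted p = 6.20e-04). Kcna5, a subunit better known from heart and vessel muscle, was scarce, at 1.11, 2.73 and 2.54 CPM at P28 and 0.81, 0.46 and 0.73 CPM at P0. The P28 libraries held 8, 33 and 33 reads and the P0 libraries 2, 5 and 9. Its change was called (log2 fold change 1.78, SE 0.64, adjusted p = 0.0194) but was lost without P0 replicate 2 (adjusted p = 0.0923), P28 replicate 2 (0.0625) or P28 replicate 3 (0.0559).

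Kcna6, an alpha subunit of the same axonal group, had 92.3, 99.4 and 93.6 CPM at P28, against 77.9, 88.2 and 87.9 CPM at P0. The ages did not overlap, but the change was not called (log2 fold change 0.16, SE 0.09, adjusted p = 0.135). Kcna6 did change between the ages in between. Its means were 84.6 ± 5.9 CPM at P0, 115.6 ± 11.1 at P7, 95.9 ± 1.4 at P14, 68.2 ± 5.4 at P21 and 95.1 ± 3.8 at P28 (SD, n = 3 each). The 3 P21 libraries, with 63.7, 74.2 and 66.9 CPM, were below those of every other age.

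The 3 beta genes all rose. Kcnab2, whose product promotes surface and axonal delivery of the channels, had 463, 504 and 530.3 CPM at P28, against 32.3, 44.1 and 38.6 CPM at P0 (log2 fold change 3.67, SE 0.14, adjusted p = 1.98e-14). Kcnab1, whose product confers fast inactivation on channels that lack it, had 228.03, 191 and 194 CPM at P28, against 37.9, 31.0 and 26.3 CPM at P0 (2.74, SE 0.13, adjusted p = 4.06e-13). Kcnab3 had 42.3, 38.4 and 43.9 CPM at P28, against 5.24, 7.996 and 9.05 CPM at P0 (2.37, SE 0.15, adjusted p = 6.24e-11). For none of the 3 did libraries of P28 and P0 overlap. This held for every member, the uncalled Kcna6 among them. The share of all genes without overlap was not computed, so nothing particular to Kv1 genes can be read from it.

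**Figure D1:**
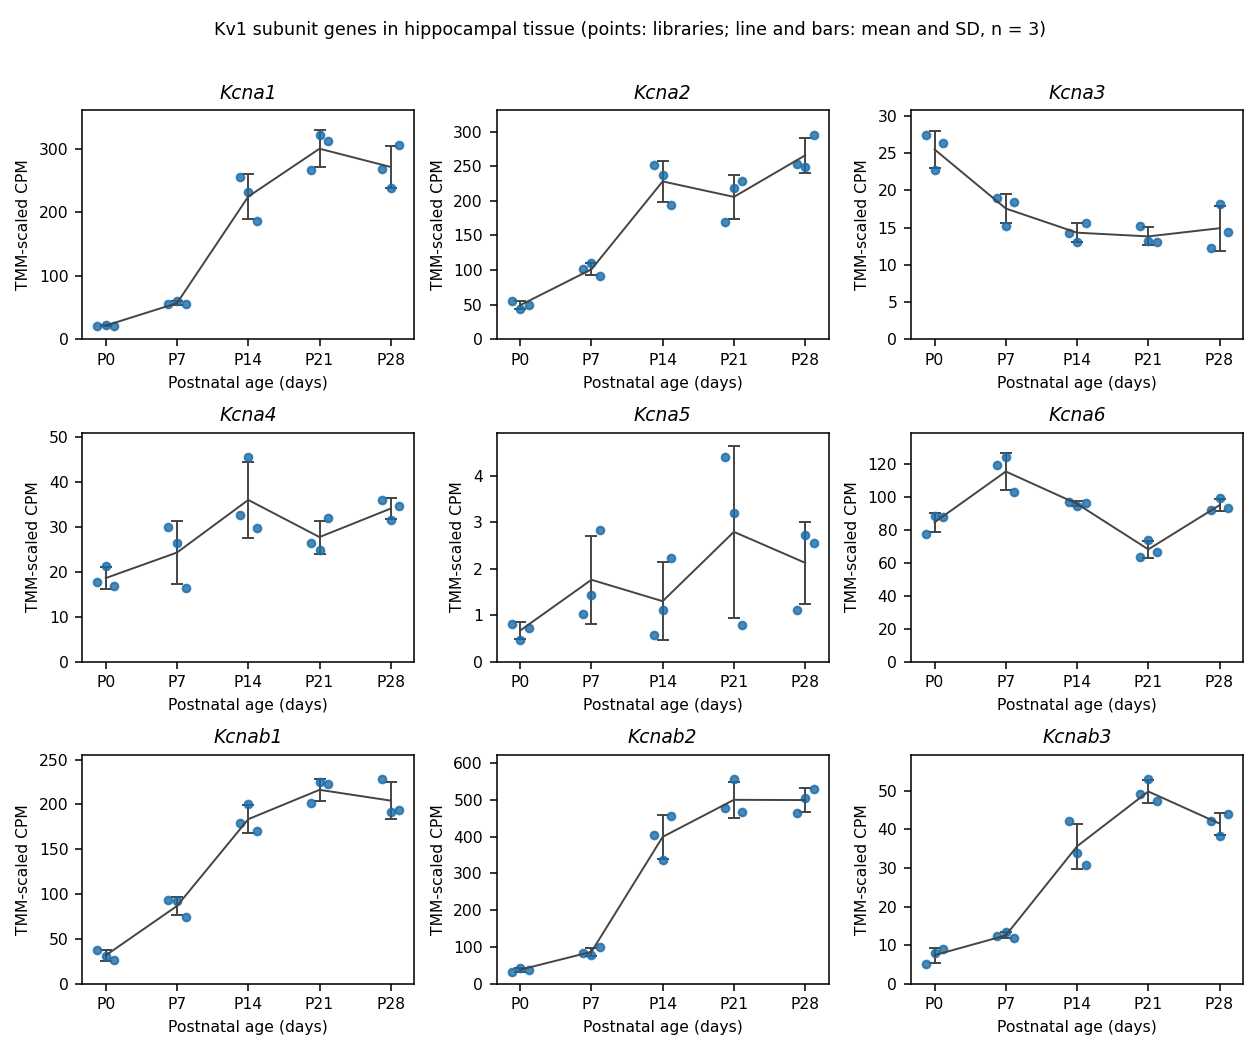
TMM-scaled CPM of each Kv1 gene (vertical axes, from 0) in tissue at 5 postnatal ages, with points for libraries and lines and bars for mean and SD (n = 3). Kcna1 averaged 272 CPM at P28 and 21.7 CPM at P0, Kcna3 14.9 and 25.5 CPM, and Kcna6 had its lowest mean, 68.2 CPM, at P21.

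The changes fell mostly in the weeks before P14. Across all ages, all 9 members differed (F test in edgeR), as did 76.4% of all genes tested. Between P7 and P0, 6 members rose (21.0% of all genes rose) and Kcna3 fell (17.8% of all genes fell). Kcna4 (log2 fold change 0.33, adjusted p = 0.213) and Kcna5 (1.61, adjusted p = 0.0668) were not called in this step. Kcna1 rose by 1.39, Kcna2 by 1.06, Kcna6 by 0.43, Kcnab1 by 1.497, Kcnab2 by 1.15 and Kcnab3 by 0.64 on the log2 scale (adjusted p at most 0.00612). For Kcnab1 this was its largest step. Kcna3 fell by 0.52 (adjusted p = 0.0147). The call of Kcna3 was lost without P0 replicate 3 (adjusted p = 0.0549) or P7 replicate 2 (0.0655).

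Between P14 and P7, 6 members rose (21.7% of all genes) and Kcna6 fell (20.5% of all genes). Kcnab2 and Kcna1 rose by 2.19 and 1.98 on the log2 scale, Kcnab3 by 1.52, Kcna2 by 1.18 and Kcnab1 by 1.09. Kcna4 rose by 0.59 (adjusted p = 0.0190), a call lost without P7 replicate 3 (adjusted p = 0.166) or P14 replicate 2 (0.0841). Kcna6 fell by 0.26 (adjusted p = 0.0250), a call lost without P7 replicate 1 or 2 or any of the P14 replicates (adjusted p from 0.0506 to 0.128). Kcna3 (−0.28, adjusted p = 0.171) and Kcna5 (−0.54, adjusted p = 0.490) were not called.

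From P14 on, few members moved. Between P21 and P14, Kcna1 (log2 fold change 0.42, adjusted p = 0.0115) and Kcnab3 (0.48, adjusted p = 0.0132) rose and Kcna6 fell by 0.49 (adjusted p = 8.96e-04), while 9.93% of all genes rose and 10.6% fell. Both increases were lost without P14 replicate 3 or P21 replicate 2 (adjusted p from 0.0594 to 0.0671). Between P28 and P21 Kcna6 rose by 0.48 (SE 0.09, adjusted p = 0.00297) and no other member was called, and 4.49% of all genes rose and 3.34% fell. Kcna6 thus fell and rose again around P21, and both of these calls held when any 1 library was left out, although the second was lost when all libraries were thinned to the smallest (adjusted p = 0.0824). Kcna2 had a log2 fold change of 0.37 in this last step (adjusted p = 0.0636).

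**Figure D2:**
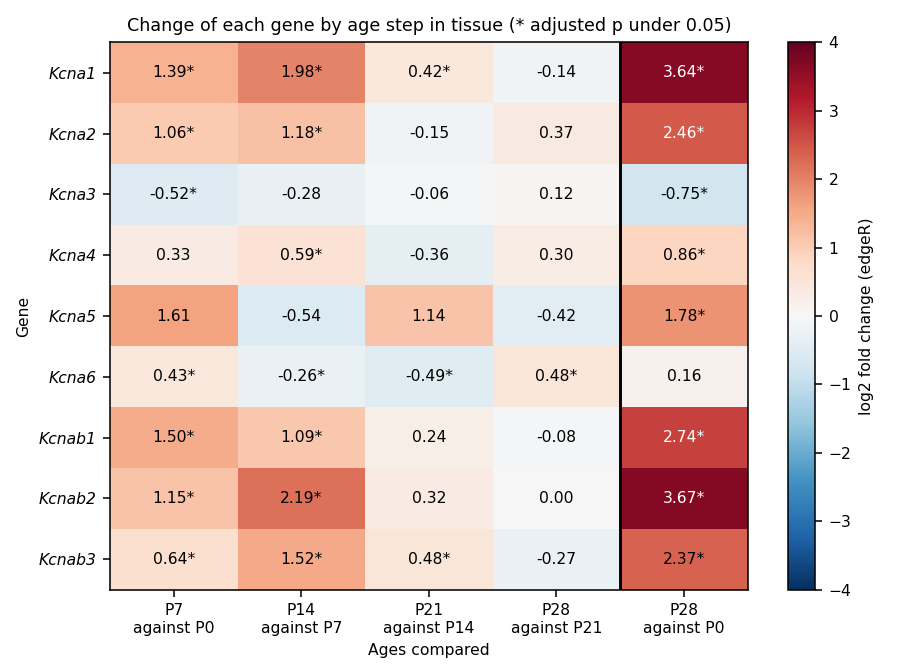
The log2 fold change of each member (rows) for each pair of ages (columns, later age against earlier age), with an asterisk where the adjusted p was under 0.05. Kcna1 and Kcnab2 gained most between P14 and P7 (1.98 and 2.19), and Kcna6 is negative at P14 and P21 and positive at P7 and P28.

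Because levels of different genes can be compared only per length, CPM were divided by the kb of exon of each gene. The make-up of the alpha genes turned over with age. Of the summed alpha CPM per kb at P28, Kcna1 held 51.2% ± 3.0, followed by Kcna2 with 20.1% ± 0.4, Kcna6 with 14.5% ± 1.4, Kcna3 with 7.13% ± 1.75 and Kcna4 with 6.38% ± 0.52, of which the last pair did not differ beyond the SD (n = 3 each). At P0 Kcna6 held 35.3% ± 2.8 and Kcna3 33.1% ± 2.7, which differ by less than their SD, and Kcna1 held 11.2% ± 0.3. Kcna5 held 0.67% ± 0.28 at P28 and 0.58% ± 0.15 at P0.

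Among the beta genes, Kcnab2 was highest per kb at both ages, with 70.0% ± 2.8 of the beta sum at P28 and 52.0% ± 3.6 at P0. Kcnab1 held 18.7% ± 2.4 at P28 and 28.4% ± 7.2 at P0, and Kcnab3 11.3% ± 0.6 at P28 and 19.6% ± 4.4 at P0. By the longest transcript, Kcnab2 held 48.8% ± 4.8 and Kcnab1 36.5% ± 8.0 at P0. By that length Kcnab1 was above Kcnab2 in P0 replicate 1, at 8.65 and 8.23 CPM per kb. The beta sum grew more than the alpha sum. It was 127.8 ± 4.6 CPM per kb at P28 and 13.2 ± 1.1 at P0, against alpha sums of 110.8 ± 8.3 at P28 and 40.4 ± 0.8 at P0. The ratio of alpha to beta sums was 3.09 ± 0.31 at P0, 1.82 ± 0.16 at P7, 0.94 ± 0.15 at P14, 0.80 ± 0.06 at P21 and 0.87 ± 0.04 at P28 (SD, n = 3 each). By the longest transcript it was 2.10 ± 0.17 at P0, 1.23 ± 0.09 at P7, 0.685 ± 0.11 at P14, 0.601 ± 0.04 at P21 and 0.642 ± 0.03 at P28.

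Genes whose products bind, anchor or modify Kv1 channels were followed as a list of 16. Of the 14 that could be tested, 12 rose between P0 and P28, Cntn2 fell and Cntnap2 was not called, with a median log2 fold change of 1.40, against 32.9% that rose, 31.3% that fell and a median of 0.00 over all genes tested. The largest increases were those of Lgi3 (5.22), a secreted protein that assembles axonal Kv1 complexes in mice, Lgi4 (4.65), a relative that acts in peripheral myelination, Adam11 (1.97), which localises Kv1 channels at cerebellar basket terminals in mice, and Dlg1 (1.84), a scaffold that binds alpha subunits. Lgi3 averaged 221 CPM at P28, against 5.50 CPM at P0. Lgi4 overlaps Fxyd3 and its counts share the limit on strand. Cntn2, an adhesion protein of axons that anchors Kv1 channels beside nodes, had a mean of 166 CPM at P28, against 484 CPM at P0 (−1.55, SE 0.10, adjusted p = 3.57e-11). The Cntn2 mean was lowest at P14, at 102.5 CPM. Cntn2 then rose between P21 and P14 (0.36, adjusted p = 0.0140) and between P28 and P21 (0.34, adjusted p = 0.0368). These calls were lost in 1 and 6 of the 15 fits that each left out 1 library. Cntnap2, the partner of Cntn2, averaged 58.7 CPM at P28 and 58.0 CPM at P0 (0.01, adjusted p = 0.966). The other alpha genes of the family, Kcna7 and Kcna10, had too few reads to test.

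For each member the 2 genes with the most similar course over the 15 libraries were found, as the smallest root mean square difference of centred log2 CPM among genes of at least 5 CPM. They were Plekhb1 (0.17) and Cpeb1 (0.20) for Kcna1, Epdr1 (0.16) and Ttll7 (0.17) for Kcna2, and Lsg1 (0.13) and Ebna1bp2 (0.14) for Kcna3. For Kcna4 they were Rprd1a (0.16) and Mpp5 (0.17), and for Kcna6 Npepps (0.13) and Grm7 (0.14), a presynaptic glutamate receptor. For Kcnab1 they were Omg (0.11), a protein of myelin and axons, and Kcnip4 (0.16), which binds potassium channels of another family. For Kcnab2 they were Ptk2b (0.15) and Cnnm1 (0.16), and for Kcnab3 Ncdn (0.20) and Adcy9 (0.20). Those of Kcna5, Icam1 (0.54) and Kcnk12 (0.56), were far less similar, and no member was the nearest gene of another.

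Single cells show which neurons held these transcripts at weeks 3 to 4. Since no label ties a cell to an animal, a cell type counts as 1 sample and no test was made. Pooled CPM are the summed reads of a type over its summed gene reads. Intervals cover counting error only, and reads without molecular identifiers are not independent molecules. A gene was counted as higher or lower at a ratio of at least 2, among genes of at least 5 CPM in either type. Kcna5 was below that level everywhere, so 8 members were compared.

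Tissue libraries held 2341677 to 13262818 gene reads and cells 30025 to 11694081. The median number of genes with a read was 4511 in PV, 6085 in CCK, 2784 in CA1 pyramidal, 9860 in burst and 9703.5 in regular cells, so a gene without a read is least informative in CA1 pyramidal cells. Of the PV cells 12 of 14 had a read of Gad1, a GABA-synthesising enzyme, and 8 of 14 one of Pvalb. Slc17a7, a vesicular glutamate transporter, was found in 19 of 25 CA1 pyramidal and all 35 subiculum cells. Gad1 and Gad2 did not exceed the pyramidal markers in 1 PV and 4 CCK cells with reads of these genes, and 2 PV and 2 CA1 pyramidal cells had no read of either set, so 9 CA1 cells in all lacked marker support for their label. The markers of PV and CCK cells were not exclusive. Cck had a read in 11 of 14 PV, all 19 CCK and 18 of 25 CA1 pyramidal cells, and pooled to 688 CPM (reads per 1000000 gene reads of the type) in PV and 705 CPM in CCK cells. Cnr1, the cannabinoid receptor, pooled to 1152 CPM in PV and 5439 CPM in CCK cells. Pvalb was 338 CPM in PV and 0.648 CPM in CCK cells, and Lhx6, a factor of the PV lineage, 245.1 CPM in PV and 0.724 CPM in CCK cells. In 6 PV cells, of which 1 had no read of any of these genes, and in 1 CCK cell, comparing the sum of Pvalb, Tac1 and Lhx6 with that of Cck, Cnr1 and Npas1 did not favour the label. Over 1000 CPM of microglial markers were found in 4 PV, 8 CCK and 4 CA1 pyramidal cells and in no subiculum cell. Spike-in RNA was present at 1000 or more reads in 9 PV, 6 CCK and 9 CA1 pyramidal cells and in no subiculum cell, and is treated as a batch.

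PV-labelled interneurons had the highest pooled CPM of the 5 types for Kcna1, Kcna2, Kcna6 and Kcnab3, with or without the PV cell that held most reads of each gene. They also had the highest pooled CPM of Kcna3 and Kcna4 when all cells were used. Without cells over 1000 CPM of microglial markers, however, Kcna3 was 51.3 CPM in PV and 55.6 CPM in CCK cells, and with equal weight per cell Kcna4 in PV cells was 0.713 of its CA1 pyramidal level. Against CCK cells, 6 of 8 members were at least 2-fold higher in PV cells and none was lower, while 21.8% of all genes compared were higher and 26.8% lower. The median log2 ratio was 1.73 over the members and −0.08 over all genes compared. The count of 6 higher and 0 lower was the same without the 3 PV and 4 CCK cells that lacked support for an interneuron label, without the 6 PV and 1 CCK cells whose PV and CCK markers did not favour theirs, and without those over 1000 CPM of microglial markers. Without the PV cell with most reads of each gene it was 4 higher and 0 lower, with Kcna4 and Kcna6 no longer past 2-fold. With every cell given equal weight it was 4 higher and 0 lower. Within cells with spike-ins it was 5 and 0, and within cells without them 6 and 0. In cells without spike-ins the 6 included Kcnab1 in place of Kcna4. Kcna4, at 4.36 CPM in PV and 0.834 CPM in CCK cells, was below the limit of 5 CPM there.

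Kcna1 ranged over PV cells between 0 and 3157 CPM with a median of 149, and over CCK cells between 0 and 742 CPM with a median of 51.7. A read was found in 10 of 14 PV and 16 of 19 CCK cells. The ranges overlapped, with 6 PV cells above 300 CPM against 1 CCK cell. Pooled Kcna1 was 527 CPM in PV cells and 80.4 CPM in CCK cells, a ratio of 6.55 (95% interval 6.35 to 6.76). The log2 ratio was 2.71 in all cells, 2.78 in cells with spike-ins and 3.01 in those without.

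Kcnab3 differed most. In PV cells it ranged between 0 and 6400 CPM with a median of 25.1 and a read in 8 of 14 cells, and in CCK cells between 0 and 88.8 CPM with a median of 0 and a read in 5 of 19 cells. Of the 8 PV cells with a read, 6 were above every CCK cell. Pooled Kcnab3 was 321 CPM in PV and 20.6 CPM in CCK cells, a ratio of 15.6 (14.8 to 16.5). A single PV cell gave 56.5% of its reads, without which the ratio was 6.99. With equal weight per cell the ratio was 67.4, a value that includes this cell at 6400 CPM. The cell had 943 genes with a read, against a median of 4511 in PV cells. Equal weight without it was not computed. The log2 ratio was 3.97 in all cells and 2.90 without the cells whose PV and CCK markers did not favour the label. Within cells with spike-ins the log2 ratio was 2.93, and within those without 5.14.

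Kcna2 was 3.25-fold higher in PV than in CCK cells (3.13 to 3.37), with log2 ratios of 1.20 in cells with spike-ins and 2.31 in those without. Its pooled level was 230.8 CPM in PV and 71.1 CPM in CCK cells. Kcna6 was 2.28-fold higher, at 236.8 CPM in PV and 103.7 CPM in CCK cells, but 1.86-fold with equal weight and 1.09-fold without the 1 PV cell that gave 61.9% of its PV reads, and its log2 ratios by spike-in were 0.80 and 1.63. Kcnab2 was 3.41-fold higher, at 144 CPM in PV and 42.3 CPM in CCK cells, but 1.96-fold with equal weight. Both therefore pass or miss the 2-fold limit according to how cells are weighted, and Kcna6 missed it without that PV cell. The median of Kcna6 over cells with spike-ins was 0 CPM in PV and 34.8 CPM in CCK cells. Over cells without them it was 110 CPM in PV and 17.2 CPM in CCK cells. A read of Kcna6 was found in 3 of 9 PV and 4 of 6 CCK cells with spike-ins. Without them it was found in 3 of 5 PV and 8 of 13 CCK cells. For Kcnab2 the medians were 81.5 and 14.4 CPM with spike-ins and 0.882 and 40.8 CPM without.

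Kcna4 rested on few cells: it had a read in 3 of 14 PV and 4 of 19 CCK cells, and 94.97% of the PV reads came from 1 cell. Its pooled level was 31.9 CPM in PV and 3.197 CPM in CCK cells. Its log2 ratio was 3.32 with all cells, 1.97 without the deepest cell of each type and −0.58 without that PV cell. Kcna3 (56.9 CPM in PV and 48.2 CPM in CCK cells) and Kcnab1 (281 CPM in PV and 236.8 CPM in CCK cells) were within 2-fold. For Kcnab1, 63.5% of the CCK reads came from the deepest CCK cell, and without that cell Kcnab1 was 2.67-fold higher in PV cells. By spike-in the log2 ratio of Kcnab1 was −0.70 in cells with and 1.44 in cells without.

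**Figure D3:**
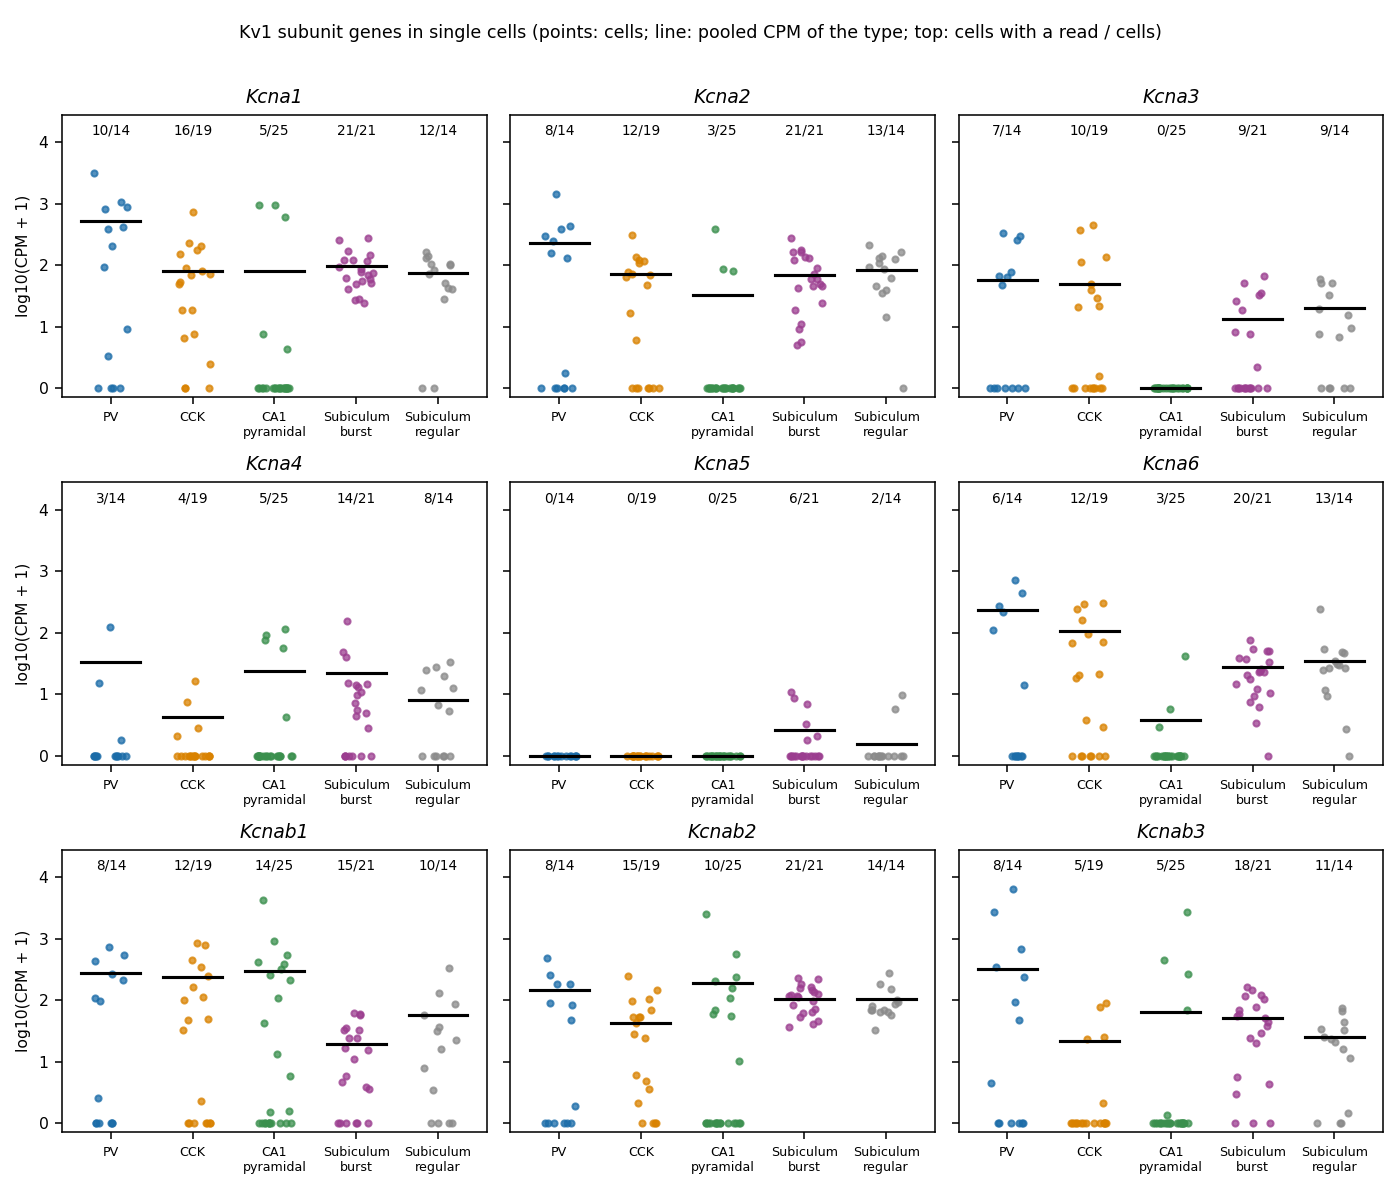
Each point is 1 cell, with log10(CPM + 1) on the vertical axis, labelled types on the horizontal axis, the pooled CPM of the type as a line, and the number of cells with a read above. PV cells reach 3157 CPM of Kcna1 and 6400 CPM of Kcnab3, CA1 pyramidal cells have no read of Kcna3, and all burst cells have a read of Kcna1, Kcna2 and Kcnab2.

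CA1 pyramidal cells held little of most alpha genes, and 1 cell gave most of their Kcnab2 reads. Against them, 5 of 8 members were past 2-fold and all 5 were higher in PV cells. Of all genes compared, 34.8% were higher in PV cells and 62.9% were past 2-fold in either direction. The count of members past 2-fold was thus near the share of all genes. Kcna3 had no read in any of the 25 CA1 pyramidal cells, which allows a share of up to 12% of cells with a read and, at 3 reads over the type, up to 0.0951 CPM. It had a read in 7 of 14 PV and 10 of 19 CCK cells. By the lower end of the 95% counting interval, Kcna3 was at least 486-fold higher in PV and at least 412-fold higher in CCK than in CA1 pyramidal cells, and over the floor of 3 reads the ratios were 598 and 507. These bounds cover the counting of reads and not the spread of cells: cells with a Kcna3 read held 15 to 502 of them each in PV and 1 to 841 in CCK cells. Microglial markers summed to 414 CPM in the PV cells, 1949 CPM in the CCK cells and 1439 CPM in the CA1 pyramidal cells, which had no read of Kcna3. Without cells over 1000 CPM of these markers, Kcna3 was 51.3 CPM in PV, 55.6 CPM in CCK and 0 CPM in CA1 pyramidal cells. The part of microglial RNA in the Kcna3 reads was not tested.

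Kcna6 was nearly as uneven. It had 236.8 CPM in PV, 103.7 CPM in CCK and 2.79 CPM in CA1 pyramidal cells, ratios of 84.9 (68.8 to 105.98) and 37.2 (30.1 to 46.4) over CA1 pyramidal cells. The CA1 pyramidal reads came from 3 of 25 cells, and 92.05% of them from 1 cell. Kcna1 and Kcna2 were 6.68-fold and 7.196-fold, and Kcnab3 5.07-fold, higher in PV than in CA1 pyramidal cells. For Kcna2 1 CA1 pyramidal cell gave 64.3% of the reads of its type, without which the ratio was 19.1, and for Kcna1 46.9%, without which it was 11.8. The Kcnab3 ratio was 2.27 without the leading PV cell and 9.33 without the leading CA1 pyramidal cell. For Kcna1 the spike-in batches differed, with a log2 ratio of 0.86 in cells with and 3.99 in cells without spike-ins, and 1 of the 9 CA1 pyramidal cells with spike-ins had a read. In all, 5 of 25 CA1 pyramidal cells had a read of Kcna1 and 3 a read of Kcna2.

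Kcnab1 and Kcnab2 were within 2-fold between PV and CA1 pyramidal cells in pooled CPM. Kcnab1 ranged over CA1 pyramidal cells between 0 and 4243 CPM with a read in 14 of 25 cells. Its pooled level was 281 CPM in PV and 300 CPM in CA1 pyramidal cells. Kcnab2 pooled to 144 CPM in PV and 192 CPM in CA1 pyramidal cells, where 1 cell gave 70.5% of the reads. Without that cell Kcnab2 was 60.02 CPM in CA1 pyramidal cells and the direction turned, to 2.41-fold higher in PV cells. For Kcna4 (31.9 CPM in PV and 23.01 CPM in CA1 pyramidal cells) the direction turned with the cells used: the log2 ratio was 0.47 in all cells, −0.49 with equal weight, −3.57 without the deepest cells, 6.54 in cells with spike-ins and −2.70 in cells without.

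CCK cells differed from CA1 pyramidal cells in both directions in pooled CPM, with several of the differences resting on single cells. Besides Kcna3 and Kcna6, Kcna2 was 2.22-fold higher (2.07 to 2.37), and Kcna4, Kcnab2 and Kcnab3 were lower, at 0.139, 0.220 and 0.325 of the CA1 pyramidal level. These are 3 higher and 3 lower members of 8, where 35.0% and 24.3% of all genes compared were higher and lower. The count of higher members was near the share of all genes. Without the CA1 pyramidal cell with most reads of each gene, 3 members were higher and 1 was lower. The ratio was then 0.706 for Kcnab2 and 0.597 for Kcnab3, both within 2-fold, 0.182 for Kcna4 and 5.88 for Kcna2. Without the CCK cell with most reads of each gene, Kcna2 was 1.88-fold higher in CCK cells, and Kcnab1 was lower, at 0.350 of the CA1 pyramidal level. Kcna1 was alike in pooled CPM, at 80.4 in CCK and 78.9 in CA1 pyramidal cells, but 16 of 19 CCK cells and 5 of 25 CA1 pyramidal cells had a read. After each cell was thinned to 200000 reads the share with a Kcna1 read was 73.7% of CCK and 21.7% of CA1 pyramidal cells. Without the deepest cells Kcna2 had a log2 ratio of 0.77 in place of 1.15, and without cells over 1000 CPM of microglial markers Kcna1 had −1.15 in place of 0.03 and Kcnab3 −0.83 in place of −1.62. Within cells with spike-ins, Kcna4 and Kcnab3 had no read in CA1 pyramidal cells, so they stood higher in CCK cells there, and within cells without spike-ins they stood lower, at −5.08 and −2.41.

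In the subiculum, 5 of the 8 members were within 2-fold between the firing types. Kcna4 and Kcnab3 were at least 2-fold higher and Kcnab1 lower in burst cells, while 7.58% of all genes compared were higher and 9.74% lower. Kcnab1 ranged between 0 and 61.1 CPM with a median of 9.94 in burst cells and between 0 and 327 CPM with a median of 18.2 in regular cells, and 71.4% of cells of either type had a read. The ranges overlapped, and 3 regular cells were above every burst cell. Pooled Kcnab1 was 18.5 CPM in burst and 56.8 CPM in regular cells, a ratio of 0.325 (0.288 to 0.366) that was 0.351 with equal weight and 0.497 without the leading regular cell.

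Kcnab3 was 50.5 CPM in burst and 24.2 CPM in regular cells, with medians of 42.5 CPM in burst and 21.13 CPM in regular cells and a ratio of 2.08 (1.86 to 2.34). It was near the limit, since its log2 ratio was 1.06 with all cells, 0.93 without the deepest cells, 0.74 after thinning and 0.81 without the leading burst cell. Kcna4 was 20.8 CPM in burst and 7.08 CPM in regular cells, a ratio of 2.93, but 1 burst cell gave 57.2% of its reads, without which the ratio was 1.36, and with equal weight it was 1.65. Without the burst cell with most reads of each gene no member was 2-fold higher in burst cells, and Kcna3, at 0.481 of the regular level, was lower beside Kcnab1. Kcna1 (97.3 CPM in burst and 73.3 CPM in regular cells), Kcna2 (69.5 CPM in burst and 82.03 CPM in regular cells) and Kcnab2 (102.99 CPM in burst and 101.9 CPM in regular cells) were within 2-fold. Oligodendrocyte markers were higher in burst cells, with summed CPM of 4310 in burst and 1850 in regular cells. Their part in these differences was not tested.

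Against CA1 pyramidal cells, subiculum pyramidal cells as a whole were higher in Kcna2, Kcna3 and Kcna6 and lower in Kcnab1. Of all genes compared, 38.3% were higher and 24.7% lower, so the count of higher members was near the share of all genes. Kcnab1 was 35.0 CPM in subiculum and 300 CPM in CA1 pyramidal cells, a ratio of 0.117 (0.110 to 0.124) that was 0.176 without the leading CA1 pyramidal cell. Kcna3 was 15.2 CPM in subiculum cells, at least 129.6-fold above CA1 pyramidal cells by the lower end of the counting interval. Kcna6 was 29.6 CPM in subiculum cells, a ratio of 10.6 (8.53 to 13.3) that was 125.1 without the leading CA1 pyramidal cell. Kcna2 was 2.34-fold higher, and 6.19-fold without the leading CA1 pyramidal cell, but its log2 ratio of 1.22 was 0.99 without cells over 1000 CPM of microglial markers and 0.93 against the CA1 cells without spike-ins. Kcnab2, at 0.533 of the CA1 pyramidal level in all cells, was at 1.71 without the leading CA1 pyramidal cell and 0.480 without the leading subiculum cell, and Kcna4, at 0.646, was at 0.369 without the subiculum cell that led for it. Region and kit cannot be told apart in these values. Kcna5 had 36 reads in 6 burst cells and 9 reads in 2 regular cells, and no read in any CA1 cell, which allows up to 0.0984 CPM in PV, 0.0452 CPM in CCK and 0.0951 CPM in CA1 pyramidal cells.

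**Figure D4:**
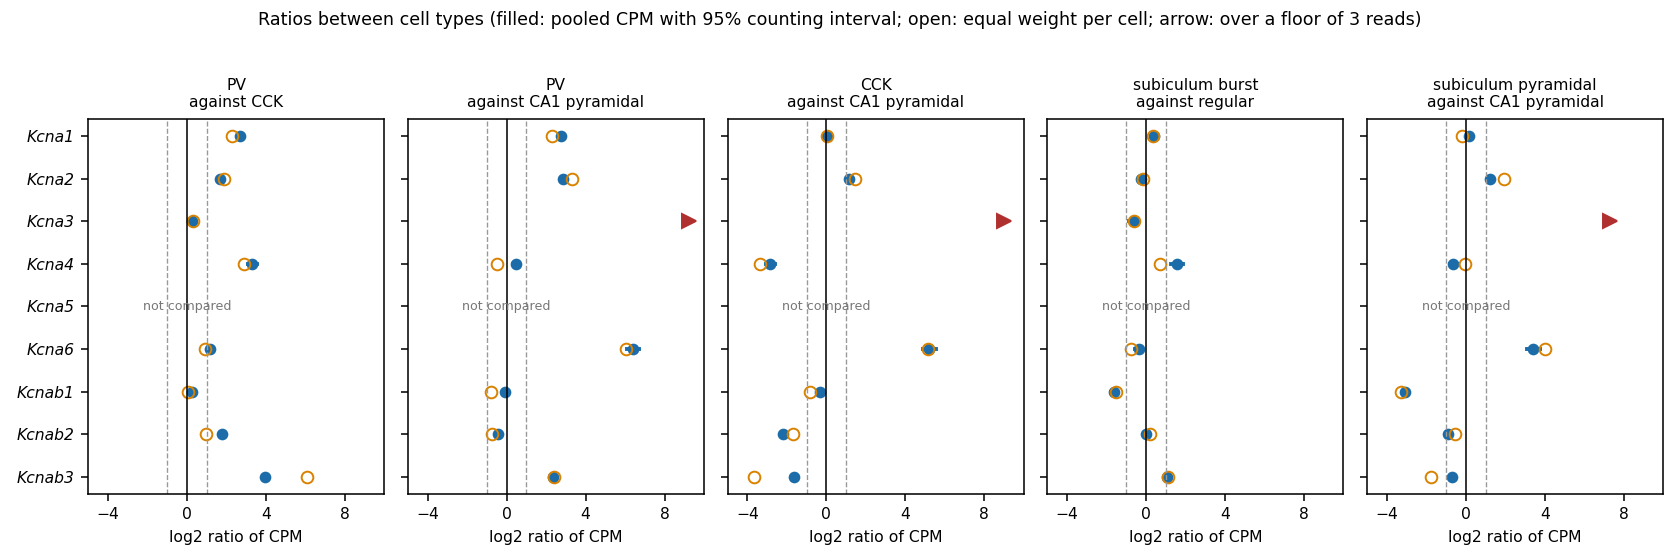
The log2 ratio of CPM for each member in 5 comparisons of cell types, with filled points for pooled CPM and their 95% counting intervals, open points for equal weight per cell, arrows for ratios over a floor of 3 reads where a type had no read, and dashed lines at 2-fold. In PV against CCK cells 6 members lie beyond the right line, and in subiculum against CA1 pyramidal cells Kcnab1 lies at 0.117 of the CA1 level.

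Per kb of exon, the order of subunits differed between the types, except that burst and regular cells had the same order. In PV cells Kcna1 held 53.5% and Kcna6 19.3% of the alpha sum, and Kcnab3 held 65.7% of the beta sum. In CCK cells Kcna3 held 38.3%, Kcna6 26.3% and Kcna1 25.4% of the alpha sum, and Kcnab1 65.1% of the beta sum. In CA1 pyramidal cells Kcna1 held 67.6% and Kcna4 19.5% of the alpha sum, while Kcnab1 with 38.1% and Kcnab2 with 37.7% shared most of the beta sum. In burst cells Kcna1 held 48.5% of the alpha sum, and Kcnab2 with 48.3% and Kcnab3 with 46.1% most of the beta sum. In regular cells Kcna1 held 38.7% and Kcna3 25.2% of the alpha sum, and Kcnab2 54.8% of the beta sum. The ratio of alpha to beta sums was 1.21 in PV, 1.57 in CCK, 0.267 in CA1 pyramidal, 1.10 in burst and 1.19 in regular cells. By the length of the longest transcript it was 1.00 in PV, 0.958 in CCK, 0.194 in CA1 pyramidal, 0.914 in burst and 0.882 in regular cells. The order of the other types, and the side of 1 for CCK, burst and regular cells, therefore depend on the length used. CA1 pyramidal cells were lowest by both lengths. By the longest transcript Kcna1, with 28.6% of the alpha sum, also came before Kcna6, with 25.4%, in CCK cells. Burst and regular cells no longer had the same order by that length. Kcnab1 held 26.8% and Kcnab3 19.7% of the beta sum in regular cells, against 8.37% and 39.5% in burst cells. Each of these shares is 1 value over pooled cells, with no replicate. As given above, 1 cell held most reads of Kcnab2 in CA1 pyramidal cells and of Kcnab1 in CCK cells. The same holds for Kcnab3 and Kcna6 in PV cells. The shares were not computed without such cells.

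**Figure D5:**
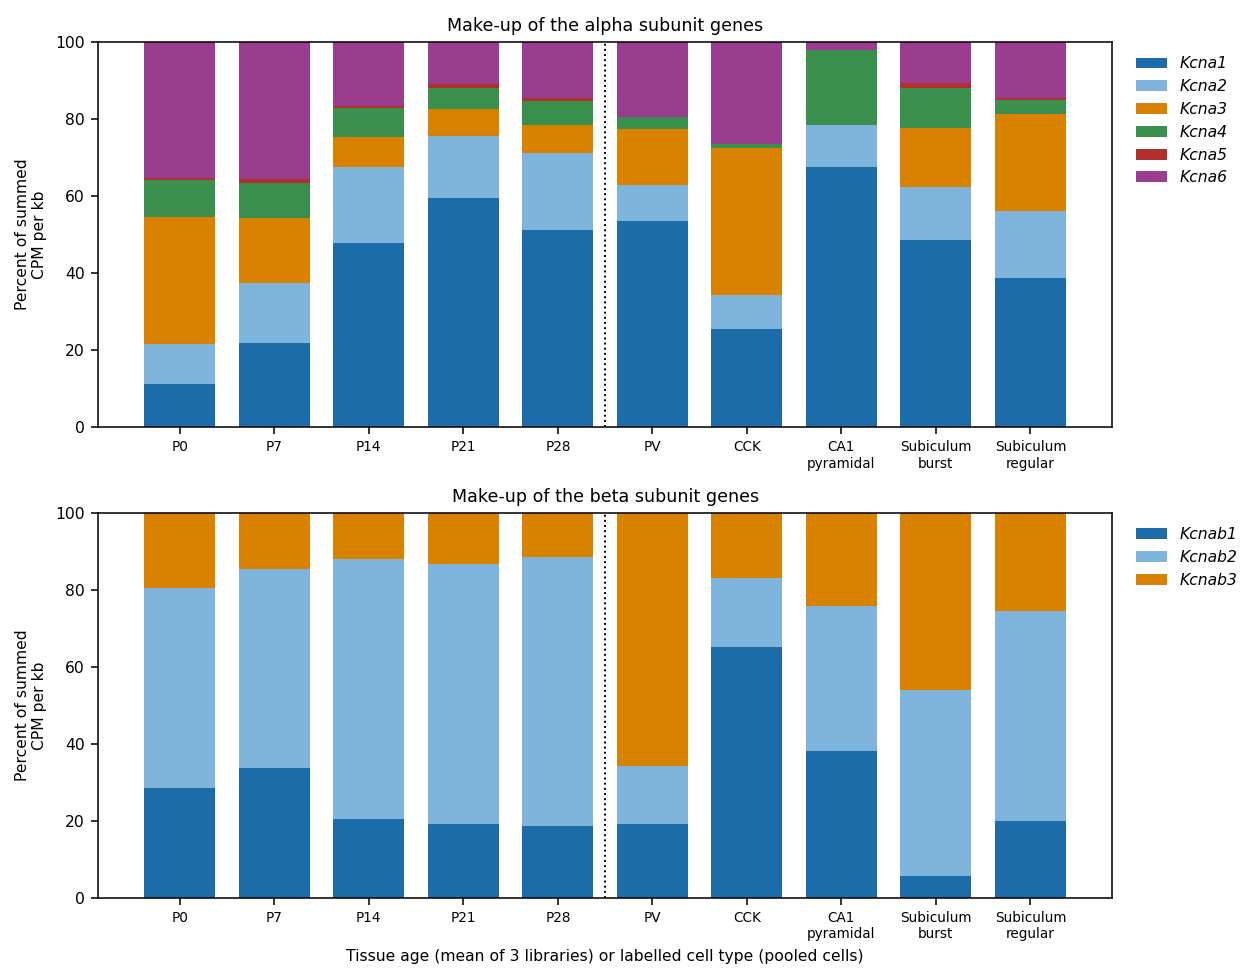
Share of each gene in the summed CPM per kb of exon of the alpha genes (top) and beta genes (bottom), as percent, for tissue by age (means of 3 libraries) and for pooled cells by type. In tissue Kcna1 holds 51.2% of the alpha sum at P28 and 11.2% at P0, and Kcnab3 holds 65.7% of the beta sum in PV cells.

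Members were found together within cells to different degrees. The median number of members with a read was 4.5 in PV, 5 in CCK, 2 in CA1 pyramidal, 7 in burst and 6.5 in regular cells. After thinning to 200000 reads it was 4 in PV, 4 in CCK, 2 in CA1 pyramidal, 7 in burst and 6 in regular cells. Kcna1 and Kcna2 were both found in 7 of 14 PV, 11 of 19 CCK, 2 of 25 CA1 pyramidal, 21 of 21 burst and 12 of 14 regular cells. At least 1 alpha and 1 beta gene were found in 10 PV, 17 CCK, 7 CA1 pyramidal, 21 burst and 14 regular cells. In CA1 pyramidal cells 10 of 25 had a beta gene and no alpha gene, against 1 PV cell and no other cell. Over all genes, the median number with a read was 2784 in CA1 pyramidal, 4511 in PV and 6085 in CCK cells. It was 9703.5 in regular and 9860 in burst cells, the order seen for the members before thinning. The counts of members found together were not set against those of other genes, so nothing particular to Kv1 genes can be read from them.

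Of the 16 partner genes, 13 were compared between cell types, and PV cells were higher than CCK cells for 3 and lower for 3, which is near the 21.8% higher and 26.8% lower of all genes compared. Adam22, a receptor of Lgi proteins that binds Kv1 complexes, was abundant in every type, with 777 CPM in PV, 503 CPM in CCK, 412 CPM in burst, 376 CPM in regular and 322 CPM in CA1 pyramidal cells. Adam23, a related receptor, was 125.7 CPM in PV, 66.4 CPM in CCK and 95.03 CPM in CA1 pyramidal cells. Lgi1, a secreted ligand of both and a gene of inherited epilepsy, was 69.2 CPM in PV, 116.4 CPM in CCK and 70.6 CPM in CA1 pyramidal cells. Cntnap2 was 36.2 CPM in PV and 158 CPM in CCK cells, a ratio of 0.229 (0.215 to 0.243). The direction was opposite to that of Kcna1 and Kcna2 between the same pooled types. Ratios of partner genes were not followed without leading cells, by spike-in or by marker exclusions. Cntn2 was 66.1 CPM in PV, 67.2 CPM in CCK and 30.9 CPM in CA1 pyramidal cells.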

How the data were processed

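Gene reads were measured in 15 tissue libraries and 93 cells. The deposited values are raw counts per gene, which the authors made with STAR and HTSeq after trimming with Trim Galore and cutadapt and a FastQC check, as listed in the submitters' processing notes. These notes name mm10 and hg19 and give no versions, and the order of the steps is not given in the sources used here. The 92 rows of ERCC spike-in RNA were left out of library sizes and tests.

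Tissue counts were tested with edgeR 4.0.16 (R 4.3.3): filterByExpr kept 14737 of 19485 genes with a read, TMM scaling, a robust quasi-likelihood fit over all 15 libraries and Benjamini-Hochberg adjustment. The common biological coefficient of variation was 0.119. Cells were pooled by labelled type, with exact Poisson intervals for levels and Clopper-Pearson intervals at a level of 0.95 for ratios, and a type without a read was set to 3 reads for a bound. Gene coordinates and lengths came from GENCODE M21 (GRCm38), and promoters from RefSeq.

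All 9 members are named, with 4 partner genes of the largest increases, those that fell or were not called, Lgi1 and its receptors, and the 2 nearest genes of each member. The members and lists were chosen with earlier results of these data known. Other settings tried in tissue were DESeq2 1.42.0, RLE factors, all genes unfiltered, libraries thinned to equal depth, replicate number as a block, fits on the 6 libraries compared, and each library left out. In cells they were equal weight per cell, thinning, a limit of 1 CPM, leaving out the deepest cells and splitting by spike-in. The exclusions by markers, and that of the cell with most reads of a gene in a type (the leading cell), were chosen after seeing the data. The fits were tested on simulated data.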

Additional observations from a re-analysis of the deposited data

How the results depend on the processing

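The replicate block, which gives each replicate number its own term, left 8 members called between P28 and P0, as without it, and the other counts of called members were also the same. Same-numbered libraries did not vary together (correlations between −0.27 and 0.16 over 30 pairs, 5 over 0.1), so the numbers were not taken as pairs. The count between P28 and P21 was 1, but 0 when libraries were thinned to 2341677 reads and 2 with only the 6 libraries of the contrast. Leaving out each library in turn gave 1 to 2 members there, 1 to 4 between P21 and P14 (3 with all libraries, 1 without P21 replicate 2), 5 to 7 between P14 and P7, 6 to 8 between P7 and P0, 7 to 8 between P28 and P0 and 8 to 9 across ages. The ratio of alpha to beta sums at P28 was 0.642 by longest transcript and 0.866 by all exons. Within cells with spike-ins the log2 ratio of CCK to CA1 pyramidal cells was 3.56 for Kcna4 and 5.75 for Kcnab3, opposite to all cells, as CA1 pyramidal cells with spike-ins had 0 reads of both and the bound of 3 reads was used. Without the PV cell with most of its reads, the log2 ratio of Kcna4 in PV against CCK cells was −0.58, opposite to all cells. Of the members' ratios under other cell settings, 285 moved beyond their counting interval and 153 stayed within it. Among ratios past 2-fold, only the 3 named above turned round. Depth limits Kcna5 and members listed at 0 in CA1 cells, and with 1 pooled sample per type no spread between animals can be given.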
